A study of Mus musculus with 4 samples.

Results

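Transit amplifying cells, the dividing descendants of stem cells in the intestinal crypt, were taken as the cells that the authors' deposited annotation calls TransitAmplifying. They numbered 1902 of the 15053 cells in the data, or 12.6%. The study set mice fed a ketogenic diet against mice fed a control diet, with 2 libraries of small intestine per diet, made with a droplet method that reads the 3' end of each RNA. The deposited cell table gives male sex throughout and 1 donor name per library, which repeats the library's name. The p-values below therefore measure the spread between libraries, which may be partly technical. The sources used here give no strain, age, genotype, diet composition or time on the diet. The class held 444 cells in control library 1, 676 in control library 2, 359 in ketogenic library 1 and 423 in ketogenic library 2. Their summed unique molecular identifiers (UMIs, each marking 1 captured RNA molecule) came to 4042288, 5642295, 3762581 and 4340669, in that order. The median transit amplifying cell had 8981.5 and 8793.5 UMIs on the control diet, and 11691 and 11259 on the ketogenic diet. Control library 1 stood apart from the other libraries in genes of MHC class II, as given below, and 109 barcodes occurred in more than 1 library, 31 transit amplifying cells among them.

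Stem cells at the crypt base divide and pass daughters upward into the transit amplifying zone, where they go through a few rapid divisions before leaving the cell cycle. Most then become absorptive enterocytes, which take up sugar, peptides and fat, and the rest become secretory cells. Dividing cells copy their DNA in S phase with helicase, polymerase and nucleotide-synthesis genes under E2F control, and later switch on a separate set of G2 and mitosis genes. Fatty acids activate the nuclear receptors of the PPAR family, which induce genes for fatty acid binding and oxidation.

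The marker genes went with the class's name. Levels are given as CPM, the UMIs of a gene per 1000000 UMIs of a class in a library. Where 4 levels follow each other, they stand for control 1, control 2, ketogenic 1 and ketogenic 2, and means over these 4 libraries carry the SD (n = 4). Pcna, the sliding clamp of DNA polymerase, stood at 233, 230.0, 220.1 and 217 CPM, a mean of 225 ± 7.6, and the next class was stem cells with 72.1 ± 7.6. Mcm6, a subunit of the replicative helicase, averaged 246 ± 14 CPM against 106 ± 12 in stem cells. Top2a, the topoisomerase that untangles DNA before mitosis, averaged 194 ± 24 CPM against 66.1 ± 11 in stem cells. All of these lay apart from the next class by far more than the spread between libraries. Mki67, a coat protein of mitotic chromosomes, averaged 103 ± 11 CPM, against 41.3 ± 3.8 in enterocytes. Stmn1, a regulator of microtubules, separated the classes least, with 922 ± 77 CPM against 675 ± 61 in stem cells. Each of these 5 genes was highest in the transit amplifying class among the 7 classes. Because the annotation may rest on the same counts, by a method that is unknown here, contrasts between classes are a description with no test.

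Among genes with at least 50 CPM in transit amplifying cells, Rrm2, a subunit of the reductase that makes deoxynucleotides, had the highest ratio to the next class, at 94.4 against 18.6 CPM in goblet cells. Tk1, thymidine kinase, stood at 144 against 45.1 CPM in enterocytes, and Cdk1, the kinase that drives entry into mitosis, at 84.8 against 27.3 CPM in enterocytes. Of the 40 genes with the highest ratios, which include the markers Pcna, Top2a, Mki67 and Mcm6, 26 were on the replication list used below, 6 on the mitosis list and 1 on the histone list.

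Summed over 46 genes of DNA replication and S phase, transit amplifying cells held 4215, 4367, 4098 and 4446 CPM. The mean was 4281 ± 155, against 1900.2 ± 91.0 in stem cells, 1428 ± 201 in enterocytes and 1142 ± 83.2 in goblet cells. Summed over 52 genes of mitosis and G2, they held 4226, 4100.5, 3711 and 4069.7 CPM. Here the next class was enterocytes with 3200.2 ± 280.2, followed by stem cells with 2488 ± 66.1, so the mitosis list set the class apart less than the replication list did.

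**Figure D1:**
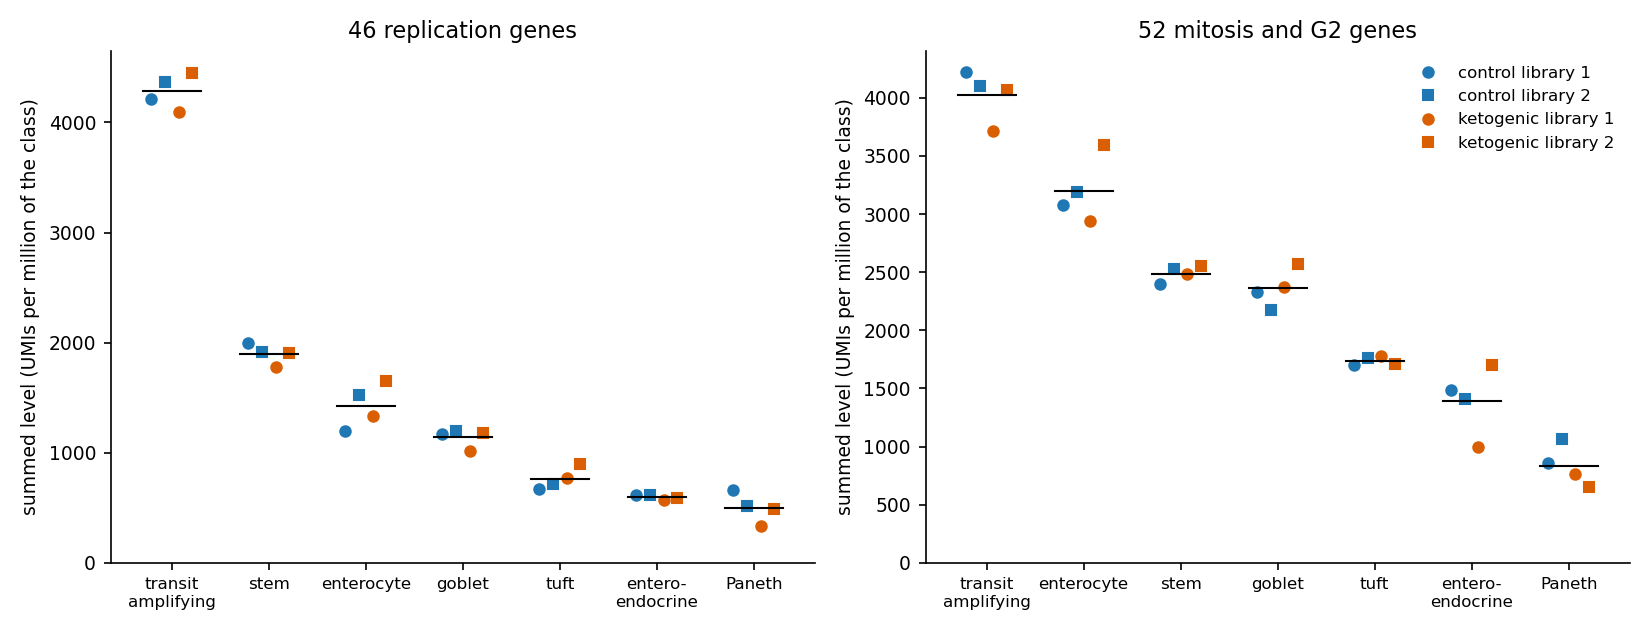
Summed level (CPM of the class's UMIs, linear axes from 0) of the replication list (left) and of the mitosis and G2 list (right) in each of the 7 classes. Each point is 1 library, blue for the control diet and orange for the ketogenic diet, and the line is the mean of 4. Transit amplifying cells average 4281 and 4027, and the next class 1900.2 (stem cells) and 3200.2 (enterocytes).

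The promoters of a gene from each list are shown because the replication and mitosis lists differed in the short motifs near their start sites. The windows run from 250 bases before to 50 bases after the RefSeq start (build GRCm38.p6, written on the strand of the gene), for Top2a at chr11:99024140-99024439 (minus strand) and for Mcm6 at chr1:128359656-128359955 (minus strand). Capitals mark CCAAT and TTTGAA in Top2a, and TTTGGCGC and TTTCGCGC in Mcm6, each searched on both strands.
Top2a: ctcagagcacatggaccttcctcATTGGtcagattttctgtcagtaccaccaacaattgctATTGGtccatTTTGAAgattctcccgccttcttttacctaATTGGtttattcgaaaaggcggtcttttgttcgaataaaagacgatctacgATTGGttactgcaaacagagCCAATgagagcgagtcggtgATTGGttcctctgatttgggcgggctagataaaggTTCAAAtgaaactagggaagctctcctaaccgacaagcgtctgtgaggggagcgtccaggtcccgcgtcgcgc
Mcm6: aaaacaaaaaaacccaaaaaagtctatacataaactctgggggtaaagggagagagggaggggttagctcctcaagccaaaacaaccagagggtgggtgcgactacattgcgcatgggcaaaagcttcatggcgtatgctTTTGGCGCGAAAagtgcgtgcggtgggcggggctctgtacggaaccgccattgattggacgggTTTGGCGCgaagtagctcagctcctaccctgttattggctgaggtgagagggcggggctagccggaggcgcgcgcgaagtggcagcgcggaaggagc
Top2a carried CCAAT at 6 places and TTTGAA, the core of the cell cycle homology region of G2 and mitosis genes, at 2. Mcm6 carried TTTGGCGC, a form of the E2F site, at 2 places and TTTCGCGC at 1, which overlapped 1 of them. Of 44 mitosis genes with a promoter in the table, 33 (75.0%) held TTTGAA, against 5 of 35 replication genes (14.3%) and 20.2% of all 27025 genes. CCAAT was held by 34 mitosis genes (77.3%), against 21 of the replication genes and 41.1% of all genes. TTTGGCGC was held by 6 replication genes (17.1%) and TTTCGCGC by 8 (22.9%), against 0.585% and 0.374% of all genes. On the mitosis list these shares were 0% and 2.27%. Among the tested genes with a promoter, 1.33% held TTTGGCGC, 0.876% TTTCGCGC, 14.3% TTTGAA and 43.2% CCAAT. These matches are letters in a window, not measured binding.

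Seen cell by cell, the largest group of the class reached 5 UMIs of both lists. Each cell was thinned to 2000 UMIs so that depth was equal, which left out 19 shallower transit amplifying cells, all of control library 2. At least 5 replication UMIs were found in 79.7% and 77.8% of the remaining cells on the control diet, and in 73.3% and 76.6% on the ketogenic diet. The share over all libraries was 77.1%, against 30.5% of stem cells, 21.2% of enterocytes and 13.54% of goblet cells. Enteroendocrine and Paneth cells, which have left the cell cycle, give a rough background of 1.23% and 3.23%, with median depths of 5898.5 and 6543 UMIs before thinning against 9675 in the transit amplifying class. The Paneth class also held goblet markers at 78039 ± 17412 CPM, beside 79177 ± 5492 in goblet cells. Thinning sets total UMIs equal and does not correct for the part that such abundant products take. At least 5 mitosis UMIs were found in 67.6% and 64.2% of the cells on the control diet, and in 53.8% and 62.4% on the ketogenic diet. The overall share was 62.6%, against 40.1% of enterocytes, 31.9% of stem cells, 28.8% of goblet cells, 22.9% of tuft cells, 9.24% of enteroendocrine and 9.14% of Paneth cells. Both thresholds were passed by 968 cells (51.4%), the replication threshold alone by 484 (25.7%), the mitosis threshold alone by 211 (11.2%) and neither by 220 (11.7%). Cells that passed these thresholds were also found in other classes. Of all cells with at least 5 replication UMIs, 36.4% were annotated transit amplifying and 44.4% enterocyte, and for the mitosis list these shares were 20.5% and 58.2%. The mitosis list holds members that are high where Mki67 is low. In tuft cells Stmn1 stood at 475, 464, 499 and 512 CPM and Mki67 at 3.43, 5.65, 11.4 and 4.66 CPM. Passing 5 UMIs of this list therefore does not by itself mark a cell in mitosis.

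In these thinned cells the ketogenic libraries had the lower values in both shares, without overlap. The difference of the means was -3.83 percentage points for the replication list and -7.81 for the mitosis list. The exact permutation test of 2 against 2 libraries gave a two-sided p of 0.333 for each, the smallest it can give. Without ketogenic library 1 the mitosis difference was -3.49 points and the replication difference -2.16. In cells under 10% mitochondrial UMIs the mitosis shares of the diets overlapped, at 67.8%, 66.2%, 57.3% and 67.1%, a difference of -4.83 points, and of 0.0286 when ketogenic library 1 was also left out. They overlapped as well without the 25% of cells richest in enterocyte genes, at 69.4%, 62.0%, 57.2% and 64.0%. Without thinning, the mitosis shares were 91.9%, 91.7%, 91.4% and 91.0%, and the replication shares were 94.1%, 94.5%, 94.2% and 95.04%. The ketogenic cells were the deeper ones before thinning, and the part of depth in the difference was not tested.

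**Figure D2:**
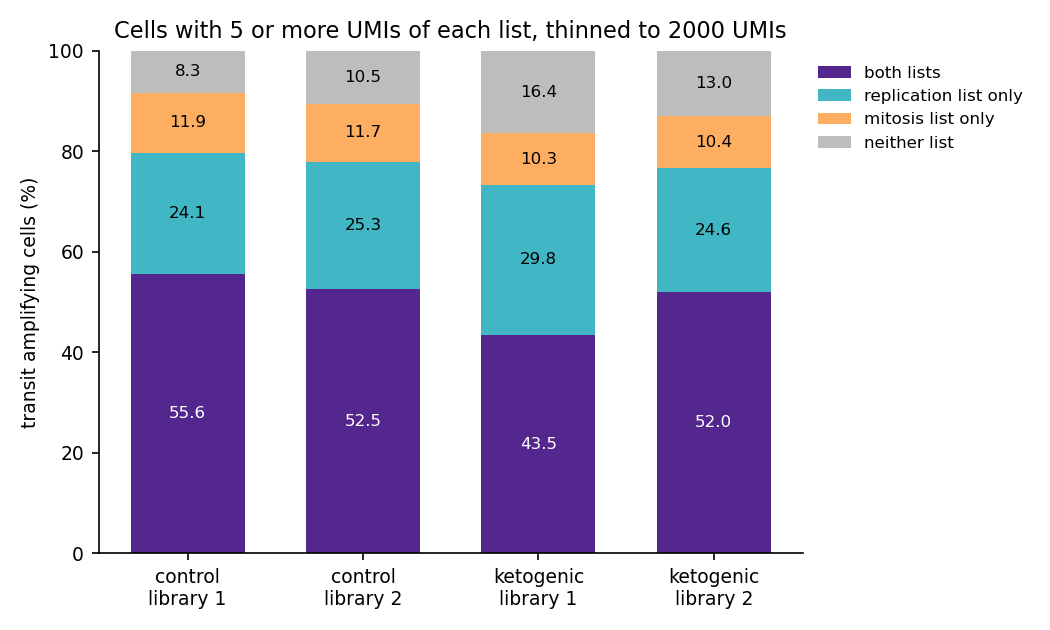
Percent of the transit amplifying cells of each library (bars, 444, 657, 359 and 423 cells with at least 2000 UMIs) that reach 5 UMIs of both lists, of the replication list only, of the mitosis list only or of neither, after thinning each cell to 2000 UMIs. Cells with neither make up 8.33% and 10.5% on the control diet, and 16.4% and 13.0% on the ketogenic diet.

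Stem cell genes and genes of mature enterocytes stood between their levels in the neighbouring classes. The 18 stem cell identity genes summed to 1478 ± 91.2 CPM, against 3207 ± 78.9 in stem cells and 1192 ± 224 in enterocytes. Lgr5, the receptor that marks crypt base stem cells, stood at 28.2, 22.2, 21.8 and 36.4 CPM in transit amplifying cells and averaged 204 ± 12 in stem cells. In enterocytes it stood at 16.2, 25.9, 22.4 and 29.7 CPM, so Lgr5 itself did not lie between the neighbouring classes in every library. The 15 peptidase, transporter and other genes of mature enterocytes summed to 1204 ± 142 CPM, against 839 ± 125 in stem cells and 2156 ± 312 in enterocytes. Ribosome biogenesis genes were not between them, at 5659 ± 236 CPM against 5385 ± 119 in stem cells and 4181 ± 532 in enterocytes, nor were the absorptive differentiation factors, at 1376 ± 72.1 CPM against 1407 ± 80.9 and 1458 ± 73.5. Immune markers summed to 1.06 to 1.73 CPM, with 6 of 14 at 0, and stromal and endothelial markers to 0.230 to 1.06 CPM, with 7 of 9 at 0.

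By number, transit amplifying cells were 12.5% and 13.8% of the captured cells on the control diet, and 11.2% and 12.4% on the ketogenic diet. The lower values were in the ketogenic libraries and the diets did not overlap. The log2 ratio of the shares was -0.16 ± 0.15 (SE), with an adjusted p of 0.415 by edgeR over the 7 classes, which did not pass the threshold of 0.05. It was -0.32 as a share of all cells except enterocytes (adjusted p = 0.0992 by edgeR) and -0.10 as a share of stem and transit amplifying cells. Leaving out control library 2 gave -0.08, and leaving out ketogenic library 1 gave -0.09.

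The main comparison asked which genes differed between the diets within transit amplifying cells. UMIs were summed per library and tested with edgeR's quasi-likelihood test, with Benjamini-Hochberg adjustment over 10069 genes and a threshold of 0.05. In all, 72 genes changed, or 0.715% of those tested: 46 rose on the ketogenic diet (0.457%) and 26 fell (0.258%). Of the 46 that rose, 17 were on the list of PPAR targets and 9 on that of mitochondrial fatty acid oxidation. Of the 26 that fell, 4 were on the list of cholesterol synthesis and uptake and 3 on that of carbohydrate digestion and sugar handling. No gene of the replication, mitosis, stem cell, nucleotide or ribosome biogenesis lists passed the test. In all 72 genes the diets did not overlap, which also holds for 38.6% of the tested genes. The median log2 fold change of all tested genes was 0.0049, and 51.2% were above 0. Before adjustment, 927 of the tested genes (9.21%, both directions together) had a p under 0.05, and the counts of list members at an unadjusted p below are to be read beside that share. Counts of list members that rose or fell are likewise to be read beside the 0.457% and 0.258% of all tested genes.

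Fabp1, which binds and carries long-chain fatty acids in the cytosol (chromosome 6, 71199827 to 71205023, plus strand, mm10), stood at 109 and 131 CPM on the control diet and at 1973 and 1032 CPM on the ketogenic diet. It rose 12.7-fold, which is 3.67 ± 0.26 on the log2 scale (SE, 2 libraries a diet, edgeR's adjusted p = 1.27e-05). Both ketogenic libraries were far above both controls, and ketogenic library 1 was the higher. Acot1, a thioesterase that frees fatty acids from coenzyme A (chromosome 12, 84009490 to 84018371, plus strand), stood at 31.7, 37.6, 264 and 158 CPM and rose by 2.62 ± 0.22 (adjusted p = 6.08e-05). Mgll, the lipase that completes fat breakdown by cleaving monoglycerides, stood at 1.24, 1.06, 16.5 and 10.4 CPM and rose by 3.54 ± 0.40 (adjusted p = 0.00127). Both were several times higher in each ketogenic library than in either control. Creb3l3, a transcription factor of lipid metabolism, stood at 3.96, 1.77, 35.3 and 15.7 CPM (3.23 ± 0.44, adjusted p = 0.00384). Angptl4, a secreted inhibitor of lipoprotein lipase, stood at 3.71, 6.03, 48.6 and 18.4 CPM (2.74 ± 0.43, adjusted p = 0.00879, and 0.0827 by DESeq2). Pdk4, a kinase that shuts pyruvate dehydrogenase, was below the filter on low counts, at 0, 0.177, 4.25 and 1.38 CPM. In goblet cells, which are not absorptive, Fabp1 stood at 52.7, 46.04, 362 and 256 CPM, and the part of free RNA from enterocytes in the transit amplifying values was not tested.

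The Fabp1 promoter is shown because, among the 15 PPAR target genes that rose and had a promoter in the table, it alone held the DR1 motif, the direct repeat with a spacer of 1 base that PPAR and other nuclear receptors can bind. The window is chr6:71199629-71199928 (plus strand, RefSeq, GRCm38.p6), and capitals mark the motif, which lies on the opposite strand.
Fabp1: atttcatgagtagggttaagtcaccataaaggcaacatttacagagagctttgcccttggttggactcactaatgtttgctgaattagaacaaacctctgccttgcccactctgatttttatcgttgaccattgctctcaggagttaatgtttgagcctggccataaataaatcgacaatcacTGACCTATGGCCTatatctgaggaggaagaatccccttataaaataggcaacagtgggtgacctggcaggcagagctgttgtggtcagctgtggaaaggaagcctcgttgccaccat
The match lies -67 to -55 bases from the RefSeq start. The motif was held by 1 of these 15 promoters (6.67%), by 0.258% of the tested genes with a promoter and by 0.451% of all genes. No match elsewhere says only that these letters are not in those windows.

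Of 36 listed PPAR targets, 30 were tested, 17 rose and 0 fell. All 30 were higher, with a median log2 fold change of 0.89, beside 0.457% of all tested genes that rose and the overall median of 0.0049. The list was chosen with earlier results of these data known, so its direction is no independent evidence. Of 24 mitochondrial fatty acid oxidation genes, many of them also on the PPAR list, 9 rose and 0 fell, with a median of 0.32. They covered successive steps of the pathway. Cpt1a, the gatekeeper that loads fatty acids onto carnitine at the outer membrane, stood at 37.4, 38.6, 81.9 and 71.9 CPM and rose by 1.03 ± 0.12 (edgeR's adjusted p = 0.00156). Slc25a20, which carries acylcarnitines across the inner membrane, stood at 15.6, 12.9, 33.0 and 28.3 CPM and rose by 1.13 ± 0.17 (adjusted p = 0.00833, and 0.0864 without ketogenic library 1, at 0.98). The ketogenic libraries lay above the controls by about a doubling in both. Acadvl, the dehydrogenase of very long chains, stood at 95, 99.3, 183 and 197 CPM and rose by 0.99 ± 0.10. Acadl, its counterpart for long chains, stood at 61.1, 52.5, 103 and 111 CPM and rose by 0.93 ± 0.11. In each of them the libraries of a diet lay close together. Hadha and Hadhb, subunits of the trifunctional protein, rose by 0.66 ± 0.13 and 0.78 ± 0.11. Acaa2, a thiolase, rose by 0.79 ± 0.09, Eci2, an isomerase for unsaturated chains, by 0.93 ± 0.12, and Etfb, an electron acceptor of the dehydrogenases, by 0.48 ± 0.10. Acadm, the medium-chain dehydrogenase, stood at 59.9, 68.2, 62.7 and 69.3 CPM, with overlapping diets (0.06 ± 0.11, adjusted p = 0.928).

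Of 18 tested genes of peroxisomal fatty acid oxidation, 2 rose and 0 fell, with a median of 0.28, beside 0.457% of all tested genes that rose. Ech1, an isomerase, stood at 152, 148, 302 and 249.5 CPM and rose by 0.90 ± 0.11 (edgeR's adjusted p = 0.00252). Abcd3, a peroxisomal fatty acid importer, stood at 51.7, 54.4, 85.3 and 76.5 CPM and rose by 0.62 ± 0.12 (adjusted p = 0.0245). The diets did not overlap in either. Pxmp4, a peroxisomal membrane protein, and Hsdl2, a dehydrogenase-like peroxisomal protein, rose by 1.07 ± 0.19 and 1.36 ± 0.16. Of 13 fatty acid uptake and binding genes, 2 rose and 0 fell, with a median of 0.10 that became 0.28 on leaving out control library 1 and 0.27 on leaving out control library 2. They were Fabp1 and its intestinal relative Fabp2, at 551, 627, 1054 and 903 CPM (0.75 ± 0.12, adjusted p = 0.00915). Without ketogenic library 1 the calls of Abcd3 (0.51), Pxmp4 (0.88) and Fabp2 (0.60) were lost, and those of Abcd3 and Pxmp4 also by DESeq2. Of 20 lipid droplet and triglyceride synthesis genes, 1 rose, Mgll, and the median was -0.11 (-0.0076 on leaving out control library 1, -0.05 on leaving out control library 2).

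Scd2, a desaturase that makes monounsaturated fatty acids (chromosome 19, 44293674 to 44306864, plus strand), stood at 169, 86.0, 21.8 and 32.5 CPM and fell by 2.18 ± 0.26 on the log2 scale (edgeR's adjusted p = 0.00149). Both ketogenic libraries were below both controls, and control library 1 was the highest. Of 15 tested lipogenesis and desaturation genes, 1 fell, Scd2, and 1 rose, Me1, beside 0.258% and 0.457% of all tested genes. Me1 is malic enzyme, a source of NADPH. Me1 stood at 1.98, 1.42, 16.2 and 8.06 CPM (2.85 ± 0.44, adjusted p = 0.00833) and lost its call without ketogenic library 1 (2.24, adjusted p = 0.0989). Fasn, fatty acid synthase, stood at 39.8, 37.2, 31.4 and 36.4 CPM and did not pass the test (adjusted p = 0.759).

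Of 26 cholesterol synthesis and uptake genes, 4 fell and 0 rose, beside 0.258% of all tested genes that fell. The median was -0.45, 25 of the 26 were lower, and 16 were lower at an unadjusted p under 0.05, which 9.21% of all tested genes had. Hmgcs1, the cytosolic synthase that feeds the pathway, stood at 66.3, 59.2, 34.0 and 37.8 CPM and fell by 0.78 ± 0.12 on the log2 scale (edgeR's adjusted p = 0.00833). Fdft1, which makes squalene, stood at 58.9, 55.3, 26.6 and 31.1 CPM and fell by 0.96 ± 0.13 (adjusted p = 0.00297). Sqle, which oxidises squalene, stood at 69.5, 49.3, 27.1 and 30.4 CPM and fell by 1.01 ± 0.16 (adjusted p = 0.00869). In all of these both ketogenic libraries were below both controls. Without ketogenic library 1, Sqle (-0.97) and Hmgcs1 (-0.74) missed the threshold, with adjusted p = 0.0796 and 0.0864.

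Sis, the sucrase and isomaltase of the brush border (chromosome 3, 72888557 to 72967863, minus strand), stood at 86.8 and 75.0 CPM on the control diet and at 6.38 and 5.76 CPM on the ketogenic diet. It fell by 3.71 ± 0.16 on the log2 scale (edgeR's adjusted p = 1.39e-07), and the libraries of each diet lay close together. Goblet cells, which do not digest sugar, had 35.4, 25.3, 5.64 and 6.24 CPM, so the ketogenic values of the transit amplifying class were at the goblet level. Tkfc, which phosphorylates a product of fructose breakdown, stood at 89.3, 89.9, 53.7 and 55.1 CPM and fell by 0.70 ± 0.10 (adjusted p = 0.0071). Both ketogenic libraries were again below both controls. All 6 tested genes of carbohydrate digestion and sugar handling, of 13 listed, were lower, with a median of -0.66. Of them 3 fell, beside 0.258% of all tested genes. Slc2a2, the basolateral glucose transporter, was below the filter, at 0.742, 0.532, 0.266 and 0.461 CPM. Of 15 tested glycolysis genes, 1 fell: Pkm, a pyruvate kinase, at 314, 389, 157 and 216 CPM (-0.90 ± 0.14, adjusted p = 0.00833), and the list's median was -0.13 (-0.08 without ketogenic library 1). Enterocyte markers summed to 1300.5, 1549, 1238 and 1253 CPM in the class, lower in both ketogenic libraries. The part of free enterocyte RNA in the Sis and Tkfc values was not tested. The 25% of transit amplifying cells richest in enterocyte genes were also shallower. Their median UMIs were 4531, 4316, 6017 and 6330, against 10367, 9536, 12735 and 11918 in the other cells of the class. Without that 25%, Sis fell by 3.16 on the log2 scale (edgeR's adjusted p = 7.58e-07), while Tkfc (-0.53) missed the threshold. Without ketogenic library 1, Pkm (-0.73) missed it.

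**Figure D3:**
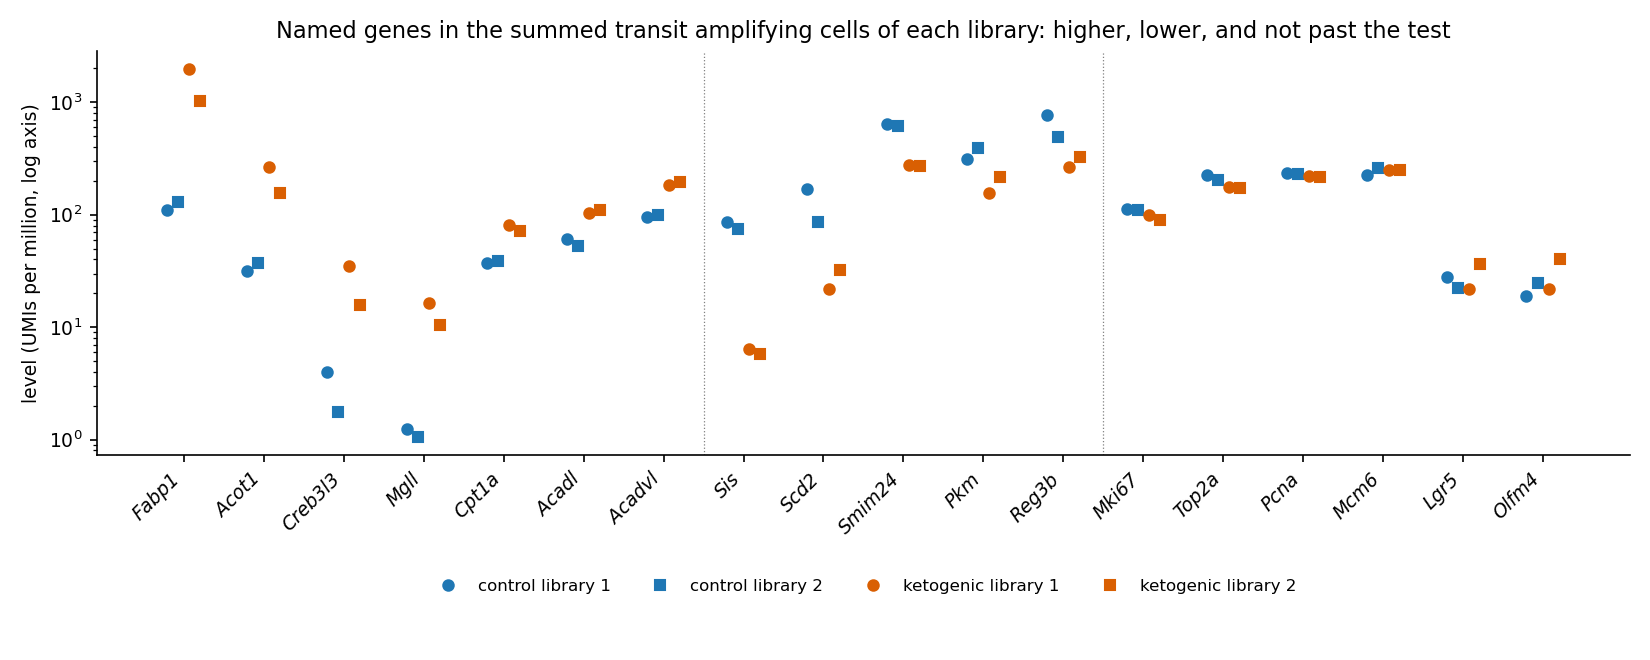
Level of 18 genes in the summed transit amplifying cells (CPM, log axis), 1 point per library, blue for control and orange for ketogenic. Dotted lines part genes that rose (left), genes that fell (middle) and genes that did not pass the test (right). Fabp1 runs from 109 and 131 to 1973 and 1032, Sis from 86.8 and 75.0 to 6.38 and 5.76, and the 4 Pcna libraries lie between 217 and 233.

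None of the 46 replication genes changed with the diet, and their median log2 fold change was 0.01, with 26 higher and 20 lower and values from -0.39 to 0.24. At an unadjusted p under 0.05, 1 was higher and 1 lower, and DESeq2 called 0, as it did in every list in which edgeR called 0. Pcna had a log2 fold change of -0.06 ± 0.09 and Mcm6 of 0.06 ± 0.10. Rrm2 stood at 119, 96.4, 71.5 and 90.3 CPM (-0.39 ± 0.12, adjusted p = 0.273 by edgeR). None of the 52 mitosis and G2 genes changed either, but 42 of them were lower and 10 higher, with a median of -0.19. At an unadjusted p under 0.05, 6 were lower and 0 higher, a share close to the 9.21% of all tested genes. Top2a stood at 225, 203, 177 and 173 CPM (-0.26 ± 0.09, adjusted p = 0.363). Mki67 stood at 113, 109.9, 98.9 and 89.6 CPM (-0.22 ± 0.10, adjusted p = 0.559). The ketogenic libraries were the lower ones in both. Ube2c, which helps degrade mitotic cyclins, stood at 120.5, 118, 78.9 and 92.8 CPM (-0.45 ± 0.10, adjusted p = 0.077). The median of the list stayed between -0.18 and -0.14 when any 1 library was left out.

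The 11 tested histone genes had a median of -0.19 and the 25 tested genes of G1 cyclins, CDK inhibitors and E2F factors one of -0.02, with 0 called in either by edgeR. At an unadjusted p under 0.05 the histone list had 0 higher and 1 lower, and the G1 list 1 higher and 2 lower, also close to the share of all tested genes. Ccnd1, cyclin D1, stood at 152, 113, 108 and 126 CPM and Cdkn1a, the p21 inhibitor, at 17.3, 14.2, 18.6 and 15.7 CPM, both with overlapping diets. Nucleotide synthesis (24 genes) and ribosome biogenesis (28 genes) had medians of 0.07 and -0.0013 and 0 calls, with 4 higher and 0 lower, and 3 higher and 1 lower, at that unadjusted p. With any 1 library left out, the medians lay between -0.22 and -0.12 for the histone, -0.01 and 0.04 for the G1, 0.04 and 0.10 for the nucleotide and -0.06 and 0.07 for the ribosome list, and between -0.04 and 0.08 for the replication list. The 18 stem cell identity genes had a median of 0.18 and 0 calls, with 4 higher and 0 lower at that unadjusted p. The median became 0.09, 0.07 and 0.10 on leaving out control library 1, control library 2 and ketogenic library 2 in turn. Lgr5 gave 0.25 ± 0.20 (edgeR's adjusted p = 0.758). Olfm4, a stem cell glycoprotein, stood at 19.0, 24.5, 22.1 and 40.3 CPM (0.53 ± 0.23, adjusted p = 0.497), and of the leave-one-out fits only the one without control library 2 called it (0.77, adjusted p = 0.00867). The 15 tested Wnt target and feedback genes had a median of 0.27 and 0 calls, with 5 higher and 0 lower at an unadjusted p under 0.05 (all tested genes 9.21%), and the median became 0.18 on leaving out control library 1 and 0.17 on leaving out ketogenic library 2. Sp5, a Wnt-induced factor, stood at 8.91, 11.7, 16.7 and 17.97 CPM (0.75 ± 0.21, adjusted p = 0.186). Lists of Notch and secretory fate (13 genes) and of absorptive differentiation factors (15 genes) both had a median of -0.01 and 0 calls, with 1 higher and 2 lower, and 0 higher and 1 lower, before adjustment. The Notch median became 0.20 on leaving out ketogenic library 1 and -0.10 on leaving out control library 2, and the absorptive median lay between -0.05 and 0.0096 with any 1 library left out. The 11 tested peptidase and transporter genes had a median of -0.25 and 0 calls (0 higher and 2 lower before adjustment), and a median of 0.14 without control library 1, or -0.50 on leaving out the other control library.

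Sfrp5, a secreted Wnt inhibitor that is not on the list, was called: it stood at 52.4, 55.7, 32.7 and 27.0 CPM and fell by 0.85 ± 0.14 on the log2 scale (edgeR's adjusted p = 0.0127). Its call was lost by DESeq2 (adjusted p = 0.0502) and without ketogenic library 2 (-0.67, adjusted p = 0.0769).

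**Figure D4:**
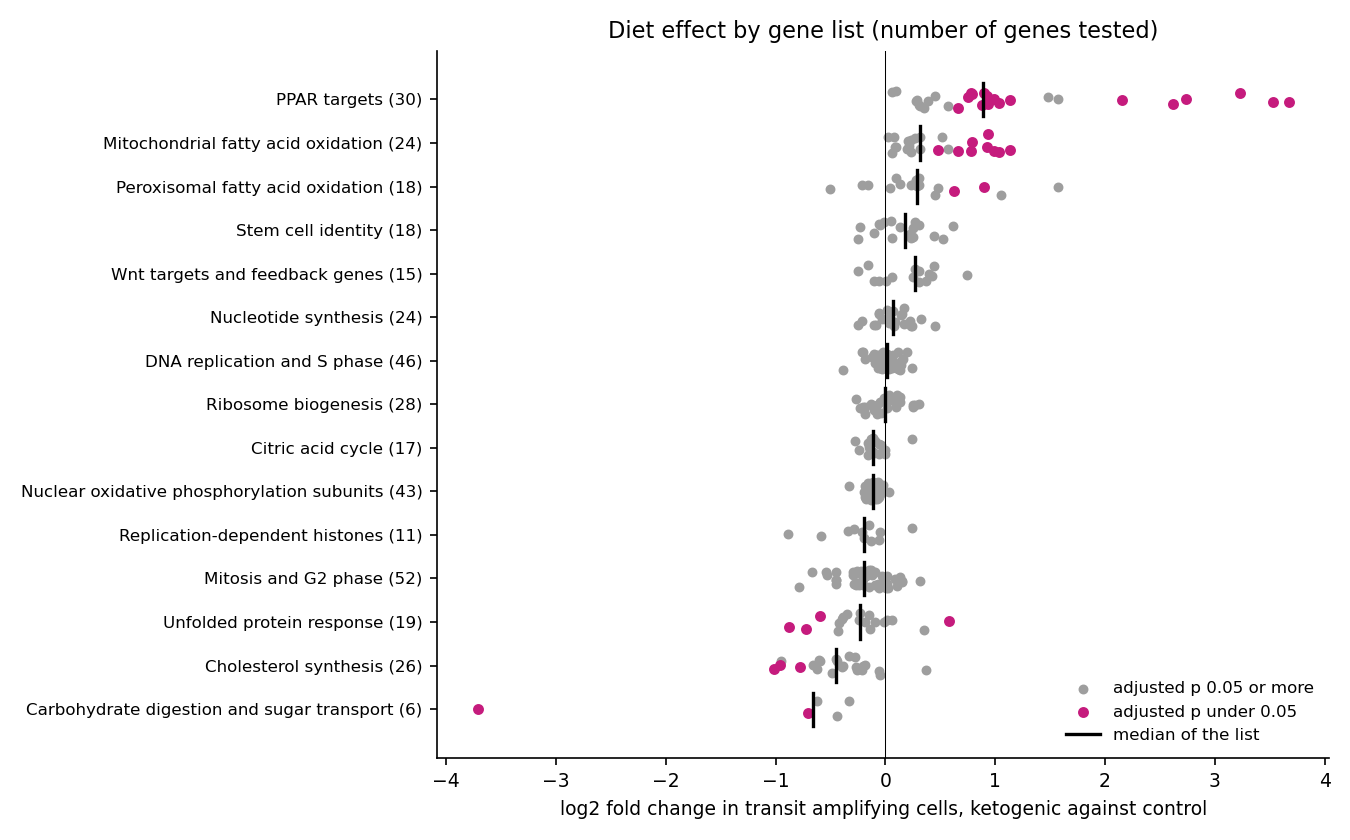
Log2 fold change (ketogenic against control) of the tested genes of 15 lists in transit amplifying cells, without those not reported here. Each dot is 1 gene, pink where its adjusted p is under 0.05, and the black bar is the median of all the list's tested genes. The PPAR target list lies to the right of 0 (median 0.89), the cholesterol list mostly to the left (-0.45), and the replication list is centred near 0 (0.01).

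The 43 nuclear subunits of oxidative phosphorylation had 0 calls and a median of -0.11, and 42 of them were lower, 1 at an unadjusted p under 0.05. The 17 citric acid cycle genes had 0 calls and a median of -0.11 (0 higher and 2 lower before adjustment), and the 13 mitochondrially encoded genes 0 calls and a median of 0.03 (0 higher and 3 lower). With any 1 library left out, these medians lay between -0.15 and -0.07, -0.15 and -0.07 and -0.06 and 0.09. These calls are edgeR's, and DESeq2 called 0 as well. Cox6b2, an isoform of a cytochrome oxidase subunit that is not on the list, stood at 22.3, 22.2, 47.0 and 42.9 CPM and rose by 1.03 ± 0.14 (edgeR's adjusted p = 0.00362).

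Of 19 tested unfolded protein response genes, 3 fell and 1 rose, with a median of -0.23, beside 0.258% of all tested genes that fell and 0.457% that rose. Hspa5, the main chaperone of the endoplasmic reticulum, stood at 533, 395, 255 and 298 CPM and fell by 0.72 ± 0.12 on the log2 scale (edgeR's adjusted p = 0.0141). Creld2 and Manf, small proteins that the same stress induces, fell by 0.88 ± 0.16 and 0.59 ± 0.10. Herpud1, which helps remove misfolded proteins, stood at 48.2, 47.0, 66.4 and 73.5 CPM and rose by 0.58 ± 0.11 (adjusted p = 0.029). All 4 lost their call without ketogenic library 1, at -0.65, -0.97, -0.54 and 0.61, and Creld2 (-0.79) and Herpud1 (0.54) also without ketogenic library 2. Of 8 tested immediate early and dissociation genes, 1 fell: Hsph1, a heat shock protein, by 0.68 ± 0.12, a call lost without ketogenic library 1 (-0.67). Of 9 tested glucocorticoid-responsive genes, Sgk1, a kinase, rose by 1.34 ± 0.27 and Mt2, a metallothionein, fell by 1.08 ± 0.16. Sgk1 lost its call without ketogenic library 2 (0.92). Of 20 tested antioxidant genes, 1 rose: Akr1b8, an aldo-keto reductase, at 3.71, 1.95, 10.6 and 9.91 CPM (1.93 ± 0.33), a call lost without ketogenic library 1 (1.84).

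Of 15 tested antimicrobial and Reg genes, 2 rose and 2 fell, beside 0.457% and 0.258% of all tested genes. Reg3b, a lectin that enterocytes secrete against bacteria, stood at 769, 495, 263 and 329 CPM and fell by 1.07 ± 0.16 on the log2 scale (edgeR's adjusted p = 0.00711). Reg3g, its relative, stood at 492, 363, 210.2 and 257 CPM and fell by 0.85 ± 0.13 (adjusted p = 0.00764). Both ketogenic libraries were below both controls for each. Defa24, a defensin of Paneth cells, stood at 74.2, 76.0, 239 and 131 CPM and rose by 1.32 ± 0.22 (adjusted p = 0.0116, and 0.329 by DESeq2). Defa22, another, stood at 4.21, 3.90, 13.0 and 11.7 CPM and rose by 1.63 ± 0.26 (adjusted p = 0.0108). Defensin genes have near-identical copies that counting can split, so these values are uncertain. The 9 Paneth markers, which include both defensins, summed to 137, 111, 383 and 210.3 CPM in transit amplifying cells, and all 8 tested ones were higher. In the Paneth class Defa24 itself stood at 64748, 36832, 168364 and 122001 CPM. Defa22 stood there at 12159, 146, 4546 and 12509 CPM, with overlapping diets and control library 2 far below the others. The part of free Paneth RNA in the transit amplifying values was not tested. Without ketogenic library 1, Reg3b (-0.95), Reg3g (-0.75) and Defa22 (1.52) missed the threshold.

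Antigen presentation separated 1 library rather than the diets. Cd74, the invariant chain of MHC class II, stood at 729 CPM in control library 1 and at 23.2, 40.1 and 42.9 CPM in the others. At least 1 Cd74 UMI was found in 69.1%, 7.99%, 12.5% and 11.8% of the transit amplifying cells. In tuft cells of the same libraries, which are shallower (medians of 5557 to 8138 UMIs), the shares were 26.6%, 2.46%, 0.862% and 4.63%. Control library 1 was the highest in both classes. The log2 fold change of Cd74 between the diets was -3.12 ± 0.93 (adjusted p = 0.231 by edgeR), and without control library 1 it was 0.83 (adjusted p = 0.000151). The 6 tested MHC class II genes had a median of -3.09 with that library and 0.76 without it. With it, 0 of them passed, although all 6 had an unadjusted p under 0.05. The 11 tested MHC class I genes and 13 tested interferon response genes were all lower, with medians of -0.31 and -0.44 and 0 calls by edgeR, 5 and 6 of them lower at an unadjusted p under 0.05, beside 9.21% of all tested genes. Without control library 1 the medians were -0.16 and -0.42. On leaving out control library 2 they became -0.62 and -0.46. Isg15, an interferon-induced modifier, stood at 5.44, 11.9, 1.33 and 6.45 CPM (-1.14 ± 0.50, adjusted p = 0.504), with overlapping diets, and was called without control library 1 (-1.56, adjusted p = 0.000831) and without ketogenic library 2 (-2.68, adjusted p = 0.0443).

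Other genes that were called were on none of the lists. Smim24, a small membrane protein, stood at 644, 618, 276 and 271 CPM and fell by 1.18 ± 0.09 on the log2 scale (edgeR's adjusted p = 3.86e-05). Adh6a, an alcohol dehydrogenase, stood at 49.7, 73.2, 19.7 and 24.9 CPM and fell by 1.46 ± 0.19 (adjusted p = 0.00297). Gmppb, which makes the mannose donor for glycosylation, fell by 0.85 ± 0.17 and lost its call without ketogenic library 1 (-0.93) and without ketogenic library 2 (-0.77). Cst6, a protease inhibitor, rose by 1.15 ± 0.16.

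The diet effect was then compared with that in stem cells, the class upstream, by the interaction of class and diet with library as a block. It differed in 20 of 10285 genes (0.194%), of which 13 were more positive and 7 more negative in transit amplifying cells. Acot1 stood at 82.7, 86.9, 324 and 249 CPM in stem cells, higher on the control diet than in transit amplifying cells. Its effects were 2.62 ± 0.22 in transit amplifying and 1.75 ± 0.14 in stem cells. The difference in the joint fit was 0.82 ± 0.13 (adjusted p = 1.71e-06 by edgeR, and 0.543 by DESeq2). Reg3b, Reg3g and Pkm fell in transit amplifying cells. In stem cells their effects were -0.06 ± 0.15, 0.30 ± 0.13 and -0.42 ± 0.14, and none of them passed the test. The differences were -0.93 ± 0.10, -1.11 ± 0.11 and -0.46 ± 0.11 (adjusted p = 8.57e-15, 2.39e-18 and 0.0168). Defa24 stood at 247, 231, 379.6 and 201 CPM in stem cells, where the diets overlapped, and the difference was 1.04 ± 0.11 (adjusted p = 8.46e-17). Defa24 and Reg3g also passed by DESeq2, while Reg3b and Pkm did not. The Pkm difference also missed the threshold when control library 1 (-0.45), control library 2 (-0.53) or ketogenic library 1 (-0.37) was left out. For Fabp1 (3.44 ± 0.19 in stem cells), Cpt1a (0.88 ± 0.17) and Acadl (1.17 ± 0.15) the differences were 0.19 ± 0.13, 0.15 ± 0.17 and -0.21 ± 0.15 and did not pass.

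Against enterocytes, the class downstream, the diet effect differed in 10 of 11484 genes (0.0871%), 9 of them more positive in transit amplifying cells. Fabp1 was the clearest. Its enterocyte levels were 777, 861, 6562 and 3209 CPM, an effect of 2.60 ± 0.34 that did not pass in enterocytes alone (adjusted p = 0.0518 by edgeR). The difference was 1.11 ± 0.10 (adjusted p = 1.99e-08 by edgeR), which was also called by DESeq2. The Fabp1 level of transit amplifying cells was below that of enterocytes in every library. The effects of Reg3b and Reg3g in enterocytes were -1.70 ± 0.30 and -1.46 ± 0.27, and neither passed there (adjusted p = 0.120 and 0.123 by edgeR). The differences were 0.73 ± 0.14 and 0.63 ± 0.12 (adjusted p = 0.0161 and 0.0137), and they were lost by DESeq2 and without ketogenic library 1 (0.35 and 0.37). For Acot1 (2.88 ± 0.32 in enterocytes) and Sis (-3.13 ± 0.23) the differences were -0.25 ± 0.13 and -0.58 ± 0.22 and did not pass. The enterocyte effects of Acot1 and Sis did pass (adjusted p = 0.0366 and 0.00784 by edgeR).

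**Figure D5:**
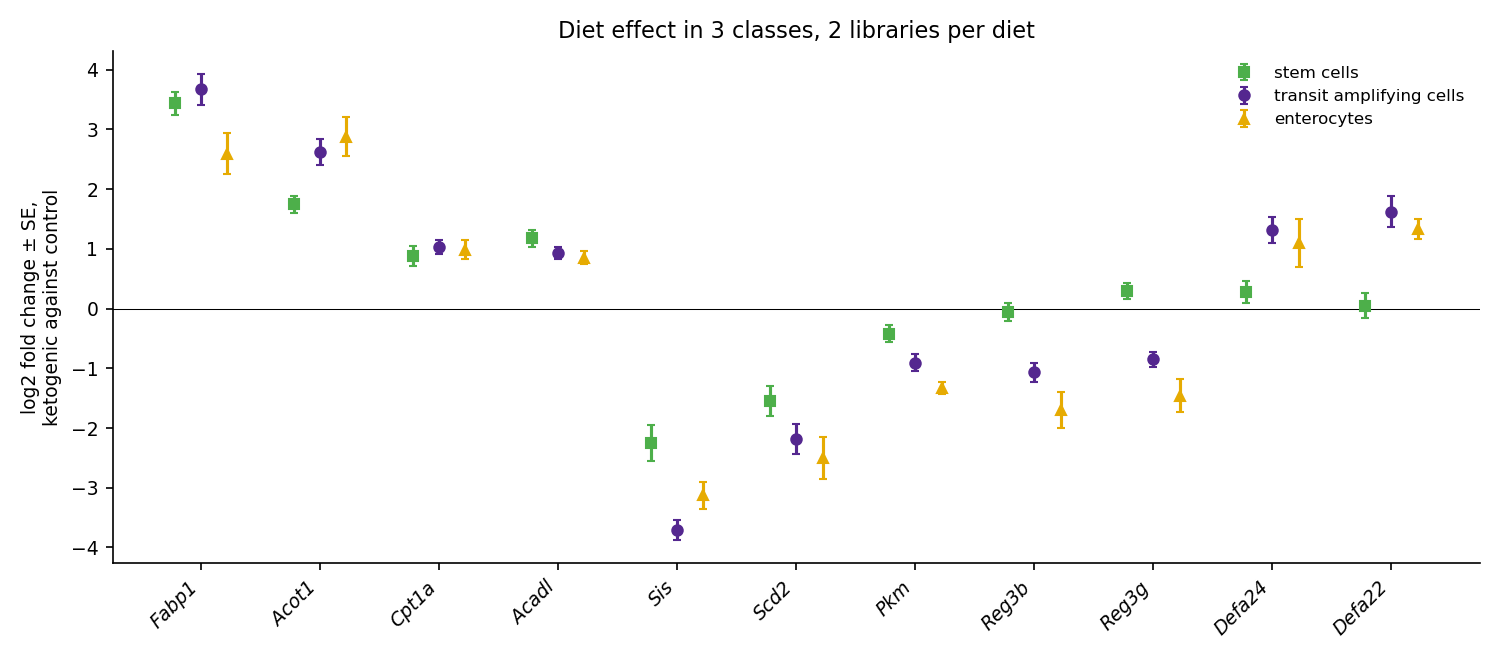
Diet effect (log2 fold change, ketogenic against control, with its SE, n = 2 libraries per diet) of 11 genes in stem cells (squares), transit amplifying cells (circles) and enterocytes (triangles). Reg3b lies near 0 in stem cells and below 0 in the other classes, and Fabp1 is 3.67 in transit amplifying cells against 2.60 in enterocytes.

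The number of calls kept varied with the library left out. Of the 72 genes, 72 were also called without control library 1, 72 without control library 2, 61 without ketogenic library 2, 33 without ketogenic library 1, and 48 by DESeq2. The direction was the same in all 72 under each of these. With 1 library in a diet, its spread was assumed to be that of the other diet. The counts without a library therefore also reflect that changed estimate of spread. Beside the genes given above with their DESeq2 value, DESeq2 did not call Reg3b (adjusted p = 0.0962), Defa22 (0.109), Akr1b8 (0.101), Gmppb (0.201), Herpud1 (0.32), Hsph1 (0.0502) and Sgk1 (1). Median mitochondrial shares of UMIs per transit amplifying cell were 9.37%, 8.12%, 8.004% and 7.79%.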

How the data were processed

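The authors deposited 1 matrix of raw UMI counts (27998 genes by 15053 cells, 4 libraries) and a cell table with 7 classes. Per the submitters' processing notes, Cell Ranger 2.1.0 and the mm10 genome were used. The other cell table columns used here, class and library, are as the authors deposited them. How cells were filtered and classed, and how doublets were treated, is unknown here.

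Counts of transit amplifying cells were summed per library, 3762581 to 5642295 UMIs, and tested with edgeR 4.0.16 in R 4.3.3 (quasi-likelihood, TMM, filterByExpr by diet, Benjamini-Hochberg, threshold 0.05), with no covariate. Differences from stem cells and enterocytes came from the interaction of class and diet, with library as a block. The procedure was tested on simulated data. Cells were thinned with a fixed seed, and Scrublet in scanpy 1.11.5 called 0 transit amplifying cells as doublets. Because it marked under 0.5% of all cells, it was not relied on, and the 6% highest scores were left out as an alternative. Permutation tests used scipy 1.17.1. The diet comparison was also computed with RLE size factors, with DESeq2 1.42.0, with a replicate block, without the filter, without each library, in cells under 10% mitochondrial UMIs, in sums thinned to the lowest total, and without the 25% of cells richest in enterocyte genes. The differences between classes were recomputed with RLE, DESeq2, no filter and without each library, and the class's share of cells with a replicate block, 2 other denominators, cells under 10% mitochondrial UMIs and without each library. Other choices of cells for the shares of cycling cells were added after seeing the data.

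Named genes were the 15 largest rises and falls without overlap whose log2 CPM averaged 4 or more (ribosomal protein genes, mitochondrially encoded genes and unnamed models left out), up to 4 called members per list, 5 differences per direction and class, and a fixed set. Acaa2, Acadm, Eci2, Etfb, Hadha, Hadhb, Fasn, Rrm2, Ube2c, Sp5, Tk1 and Cdk1 were added after their values were seen. Members and the 31 gene lists were chosen with earlier results of these data known. Gene positions are from GENCODE M21, and promoters from RefSeq, which matched 7766 of the 10062 tested genes looked up. For 5 named genes, and others of the tested ones, the values are not reported here.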

Additional observations from a re-analysis of the deposited data

Results flagged for a closer look

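For the genes below, edgeR's test of the difference itself called the diet effect in transit amplifying cells different from that in stem cells or in enterocytes. Most of these calls were lost by DESeq2, as given below. Within transit amplifying cells the diet effect passed for Fabp1, Acot1, Pkm, Reg3b, Reg3g, Defa24 and Defa22. It did not pass for Defa20, AY761184, Gm14851, Dmbt1, Rbp2, Fabp6, Myl7 and Pls1, none of which passed in the class they are set against either. Ifit1 was below the filter in transit amplifying cells. Differences are transit amplifying minus the other class on the log2 scale with the SE, from 2 libraries per diet, by edgeR's quasi-likelihood test, and no explanation was tested.

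Against stem cells, the differences of antimicrobial and Paneth genes were 1.04 ± 0.11 (adjusted p = 8.46e-17) for Defa24, 1.57 ± 0.33 (adjusted p = 0.00282) for Defa22, 1.68 ± 0.26 (adjusted p = 2.36e-07) for Defa20, 1.33 ± 0.22 (adjusted p = 3.11e-06) for AY761184 and 1.17 ± 0.27 (adjusted p = 0.0114) for Gm14851. Near-identical copies can share the counts of these genes. Defa24 stood at 74.2, 76.0, 239 and 131 CPM in transit amplifying cells, beside Paneth marker sums of 137, 111, 383 and 210.3 there and 395, 330.0, 560.0 and 331 in stem cells. The differences were of the other sign for Reg3b, at -0.93 ± 0.10 (adjusted p = 8.57e-15), for Reg3g, at -1.11 ± 0.11 (adjusted p = 2.39e-18), and for Dmbt1, a secreted scavenger receptor, at -0.56 ± 0.10 (adjusted p = 3.29e-05). Of the metabolic genes, Acot1 differed by 0.82 ± 0.13 (adjusted p = 1.71e-06), Pkm by -0.46 ± 0.11 (adjusted p = 0.0168) and Rbp2, a retinol carrier of enterocytes, by -0.72 ± 0.16 (adjusted p = 0.0114). Leaving out 1 library ended the call for Defa22 (1.36 without control 1) and AY761184 (0.92 without control 1). It also did so for Gm14851 (1.00, 1.16 and 1.15 without control 2, ketogenic 1 and ketogenic 2), Pkm (-0.45, -0.53 and -0.37 without control 1, control 2 and ketogenic 1) and Rbp2 (-0.74, -0.73 and -0.65 without the same libraries).

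Against enterocytes, Fabp1 differed by 1.11 ± 0.10 (adjusted p = 1.99e-08), Reg3b by 0.73 ± 0.14 (adjusted p = 0.0161) and Reg3g by 0.63 ± 0.12 (adjusted p = 0.0137). Myl7, a cardiac type of myosin light chain, differed by 1.51 ± 0.26 (adjusted p = 0.00902), and Pls1, a bundling protein of microvilli, by 0.73 ± 0.15 (adjusted p = 0.0313). Fabp6, the bile acid carrier of the distal small intestine, differed by -1.51 ± 0.28 (adjusted p = 0.0137) and stood at 43.0, 3.54, 4.78 and 5.99 CPM in transit amplifying cells, high in control library 1 alone. Without that library the difference was -0.52. Ifit1, an interferon-induced gene, differed by 5.52 ± 0.99 (adjusted p = 0.012) and rested on 1, 3, 0 and 10 UMIs in transit amplifying cells, and without ketogenic library 2 the difference was -0.85. Pls1 lost its call without ketogenic library 1 (0.78) and without ketogenic library 2 (0.65), and Reg3b (0.35) and Reg3g (0.37) without ketogenic library 1. By DESeq2, of all the differences named here, those of Defa24 and Reg3g against stem cells and of Fabp1 against enterocytes were called, and each of these also held when any 1 library was left out.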

How the results depend on the processing

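The 72 genes changed by diet in transit amplifying cells became 279 with no filter on low counts, and 37 to 290 when 1 library was left out (37 without ketogenic 1, 99 without ketogenic 2, 220 without control 1, 290 without control 2). With 1 library in a diet, its spread was assumed to be that of the other diet. Under RLE size factors, DESeq2, fewer cells or thinned sums the count was 51 to 103, and the tested ones of the 72 kept their direction under each alternative. A replicate block gave 200 calls, but the library numbers come from titles only, so whether same-numbered libraries form pairs is unknown here. The deviations of same-numbered libraries correlated at 0.0069 across genes. That value cannot decide the question, since sampling noise in each gene also lowers such a correlation. The 20 differences from stem cells became 3 by DESeq2 and 16 to 53 with 1 library left out (53 without ketogenic 2). The 10 differences from enterocytes became 20 with no filter, 2 by DESeq2 and 8 to 220 with 1 library left out (23 without control 1, 220 without control 2). The cause was not tested.

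Among the named genes, direction turned for 9, none of them called in the diet comparison. With 1 library left out the log2 fold change ranged over -0.41 to 0.0381 for Rbp2, -2.94 to 0.60 for Fabp6, -0.11 to 0.53 for Myl7, -0.14 to 0.0645 for Pls1, -0.0537 to 0.19 for Mcm6, -0.14 to 0.53 for Lgr5, -0.34 to 0.0399 for Ccnd1, -0.0125 to 0.31 for Cdkn1a and -4.09 to 0.83 for Cd74. Pls1 was also 0.0175 in cells under 10% mitochondrial UMIs, 0.0105 without the highest doublet scores and 0.0278 without the most enterocyte-like cells. The Ifit1 difference from enterocytes ranged over -0.85 to 6.18. Depth limits genes of a few UMIs per library, and 2 libraries per diet limit every test.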
